A study of Homo sapiens with 6 samples.

Results

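Small heat shock proteins are chaperones that bind unfolding proteins without using ATP, and 8 genes carrying that name were examined in DBTRG, an established human glioblastoma cell line. The genes were CRYAB, HSPB1, HSPB2, HSPB3, HSPB6, HSPB7, HSPB8 and HSPB11, found by symbol as 8 of the 58884 genes of the deposited table, each with a single row. Wild-type DBTRG cells spent 5 days either in 2D on a rigid dish or in 3D within a soft gel, and total RNA was sequenced from 3 libraries per group. Both groups are the same cell line, the labels name no drug or other agent, and they do not say whether the libraries came from separate cultures, so that the spread between libraries may be technical. The gel's composition and stiffness are not given in the sources used here, and dish against gel also sets 2D against 3D growth, so the effects of stiffness and dimension cannot be told apart. The family was selected on values of this same comparison, in which CRYAB differs strongly, and its members by symbol, so the member values are given as a description without p-values.

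Small heat shock proteins share an alpha-crystallin domain and assemble into oligomers that hold client proteins in a soluble state for the ATP-driven chaperones of the HSP70 family. CRYAB (alpha B-crystallin) and HSPB1 are made in many tissues, are phosphorylated on stress and associate with actin and intermediate filaments, and CRYAB accumulates in the Rosenthal fibres of astrocytes. HSPB8 works with the co-chaperone BAG3 to send damaged proteins to autophagy. HSPB2, HSPB3, HSPB6 and HSPB7 are best known from heart and skeletal muscle. HSPB11 carries the family's name but is a subunit of the intraflagellar transport complex of cilia. Heat shock factors, led by HSF1, activate heat shock genes at elements made of inverted repeats of GAA.

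Promoter windows from RefSeq (GRCh38.p14, 250 bases before to 50 after the gene start) were at hand for 5 of the 8 genes, namely HSPB1, HSPB3, HSPB6, HSPB7 and HSPB8. They were searched for the inverted pairs GAANNTTC and TTCNNGAA, each of which reads the same on both strands. Either pair occurred in 13.5% of all 35116 windows, and in the windows of HSPB1, HSPB3, HSPB6 and HSPB8 but not in that of HSPB7. The matches are shown, with the paired letters in capitals, because heat shock factors are the shared regulators known for this family. HSPB1 is shown for the part of the window that lies before its first GENCODE transcript (chr7:76302423-76302543, plus strand), and the others for 30 bases each, from HSPB8 (chr12:119178832-119178861, plus strand), HSPB6 (chr19:35757214-35757243, minus strand) and HSPB3 (chr5:54455449-54455478, plus strand).
HSPB1: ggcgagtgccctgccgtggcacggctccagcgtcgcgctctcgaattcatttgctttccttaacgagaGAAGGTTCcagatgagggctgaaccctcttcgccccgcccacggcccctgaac
HSPB8: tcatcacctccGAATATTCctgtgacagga
HSPB6: cctcTTCTGGAAattgggGAATCTTCatgt
HSPB3: cactctctTTCTTGAAgtaagcaaggcaga
Counted from the RefSeq start, the HSPB1 match begins at base -182, the printed HSPB8 match at -88 and the HSPB3 match at -242. HSPB6 held both pairs, beginning at -210 and -196. HSPB8 held another GAANNTTC pair after the start, from base 5 to base 12. The HSPB8 and HSPB6 stretches lie before the RefSeq start but inside the longer gene spans of GENCODE 29, which begin further upstream, while the HSPB3 stretch lies before its span. A match describes letters in a window and is not a mapped binding site.

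Library totals ran from 20911340 to 25901465 counts after rounding. On the first principal component (59.2% of the variance) soft gel 3 (25.91) lay nearer to the rigid dish libraries than soft gel 1 (46.23) and soft gel 2 (54.03). The second component (17.3%) set rigid dish 1 apart (45.95, against -4.50 and -24.82 for the other rigid dish libraries). The marker lists were read in CPM, counts scaled to the effective size of each library. Of 10 glioma and astroglial markers, VIM, CD44, NES, SOX9 and SOX2 were well expressed, GFAP stood at 0.645 ± 0.318 CPM on the rigid dish (SD, n = 3), and OLIG2 had 0 counts in all 6 libraries. GFAP, the defining astrocyte marker, and OLIG2 were thus at or near 0 in a line labelled as brain glioblastoma. S100B (0.653 and 1.30 CPM, rigid dish and soft gel), AQP4 (0.836 and 1.28) and SLC1A3 (2.89 and 3.8) were low too. Of the 9 tested markers, SOX2 (log2 fold change 0.59, edgeR adjusted p = 0.00509) and CD44 (0.33, 0.0371) rose, and NES (-0.56, 0.0211) and VIM (-0.48, 0.0172) fell. The number of these calls dropped from 4 to 1 when soft gel 1, soft gel 2 or rigid dish 2 was left out. The CD44 call was lost without each library in turn except rigid dish 1 (edgeR adjusted p = 0.0981 to 0.194). It was also lost with DESeq2 (adjusted p = 0.0719), with DESeq2 size factors in edgeR (0.0733), with no filter and in the TPM fits. With all libraries, 44.4% of the tested markers were called, beside 28.6% of all tested genes. The call count over all genes depended on the libraries and was 4603 with all. It fell to 1803 without soft gel 2, 1963 without soft gel 1, 2026 without rigid dish 2 and 3180 without rigid dish 3. It rose to 6164 without rigid dish 1 and to 5337 without soft gel 3. In bulk RNA, a change in the number of cells of a type and a change of RNA per cell cannot be told apart.

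CRYAB, alpha B-crystallin, on the minus strand of chromosome 11, was the member with the largest difference. Levels between genes are compared in TPM, the authors' transcript abundance scaled for gene length and library size. CRYAB stood at 61.1, 83.9 and 64.4 TPM in rigid dish libraries 1 to 3 and at 1698, 1847 and 1138 TPM in soft gel libraries 1 to 3. The lowest soft gel library lay far above the highest rigid dish library. The estimated counts behind these levels were 641, 819 and 652 against 15111, 17784 and 9749, so counting error was small. Within the soft gel, library 3 was lowest, which is also the soft gel library nearest to the rigid dish on the first component.

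Between groups, CRYAB went from 29.5 ± 5.65 to 600.5 ± 133.6 CPM (SD, n = 3). The fitted log2 fold change, soft gel over rigid dish, was 4.35 (SE 0.216), a fold of 20.4. Taking single libraries, the smallest ratio of a soft gel to a rigid dish library was 12.97 and the largest 30.1. Of the 16098 tested genes, 10 had a larger log2 fold change. Among all genes ranked by TPM, CRYAB was 2541st, 1684th and 2098th in the rigid dish libraries, and 70th, 56th and 108th in those of the soft gel. Its share of all TPM was 0.00619% to 0.00846% on the rigid dish and 0.115% to 0.187% in soft gel. The authors' deposited table gave CRYAB a log2 fold change of 4.06. Without rigid dish 1 the log2 fold change was 4.21, and without soft gel 3 it was 4.45.

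**Figure D1:**
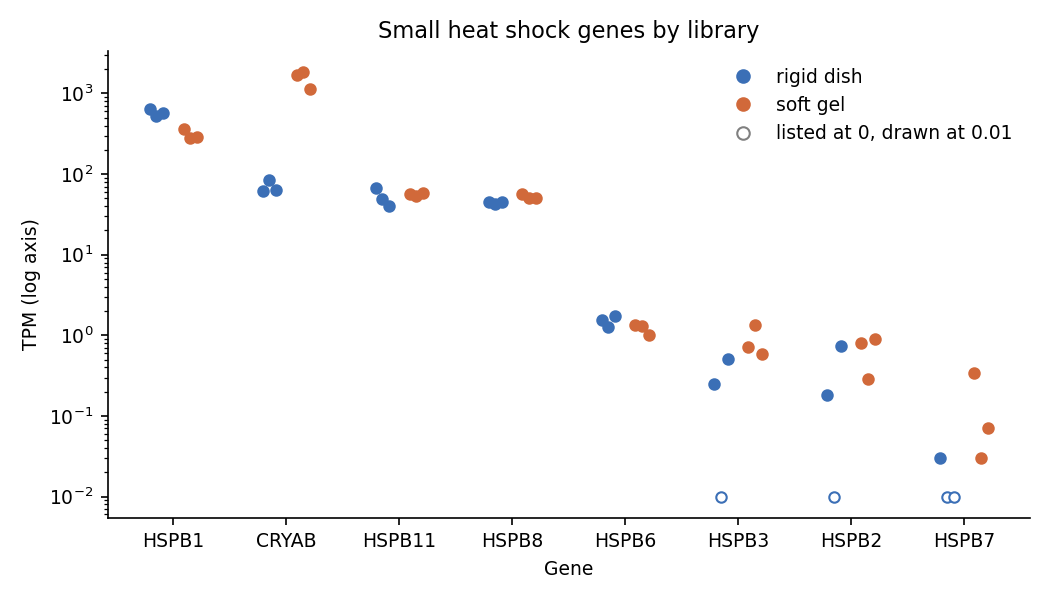
TPM (log axis) of each of the 8 genes in each library, with rigid dish points in blue and soft gel points in orange, and open circles for libraries listed at 0. CRYAB lies between 61.1 and 83.9 TPM on the rigid dish and between 1138 and 1847 TPM in soft gel, while HSPB1 lies lower in soft gel and HSPB2, HSPB3 and HSPB7 stay at or below 1.33 TPM.

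HSPB1 (ENSG00000106211, chr7:76302544-76304295, plus strand, hg38), a chaperone that binds actin filaments and is phosphorylated downstream of the p38 kinases, lay the other way. It stood at 645, 529 and 568 TPM in the rigid dish libraries and at 361, 277 and 285 TPM in the soft gel libraries. All soft gel libraries lay below all rigid dish libraries. In CPM it was 271.6, 249.2 and 292.1 against 154.0, 126.2 and 136.6, with a log2 fold change of -0.96 (SE 0.118), a fold of 0.513. The authors' deposited table gave HSPB1 a log2 fold change of -0.99. Ratios between single libraries ran from 0.432 to 0.618. The coefficient of variation within a group was 7.92% and 10.1% for HSPB1, against 19.2% and 22.2% for CRYAB (rigid dish and soft gel, n = 3 each). The processed pseudogenes HSPB1P1 and HSPB1P2, whose reads could be shared with HSPB1, held 2.01 counts in rigid dish 1 and 0 in every other library.

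The order of the members by TPM therefore differed between the groups. On the rigid dish HSPB1 was first in all 3 libraries, at 6.31 to 10.6 times the CRYAB level. In soft gel CRYAB was first in all 3 libraries, at 3.99 to 6.67 times the HSPB1 level. CRYAB made up 9.43% ± 2.27 of the summed TPM of the 8 genes on the rigid dish, against 78.3% ± 4.31 in soft gel (SD, n = 3), and HSPB1 77.5% ± 2.22 and 15.9% ± 3.16. The summed TPM was 820, 706 and 721 on the rigid dish, against 2177, 2231 and 1534 in soft gel. With CRYAB left out, the sum was 759, 622 and 656 TPM on the rigid dish, against 478, 385 and 397 TPM in soft gel. The sum of the other 7 members was thus lower in each soft gel library, and HSPB1 was its largest part.

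**Figure D2:**
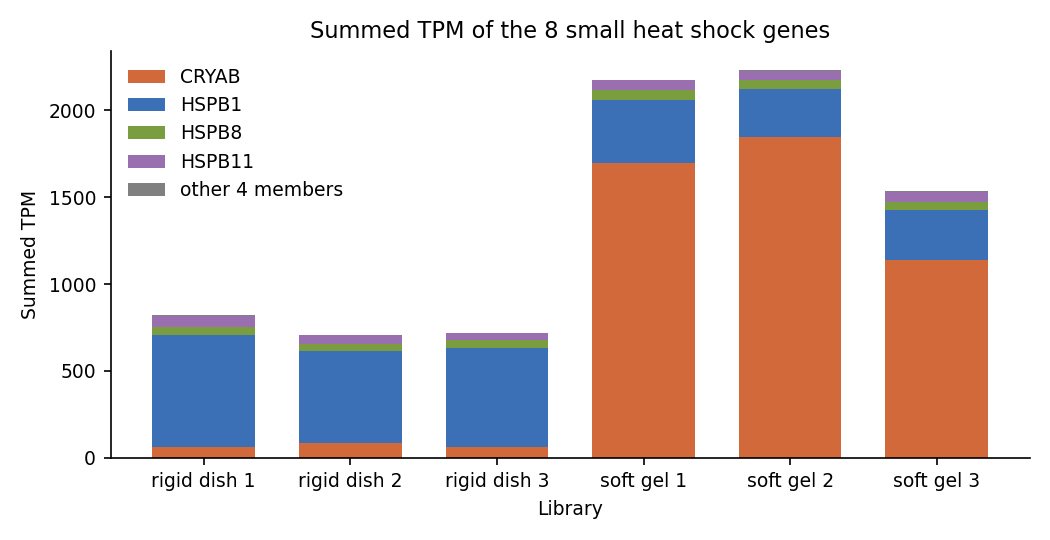
Summed TPM of the 8 genes in each library, stacked by gene, with the 4 members of lowest level drawn together. HSPB1 fills most of each rigid dish bar, and CRYAB (74.2% to 82.8%) most of each soft gel bar.

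HSPB8 (ENSG00000152137, chr12:119178642-119221131, plus strand), the partner of BAG3, stood at 45.4, 42.2 and 45.2 TPM on the rigid dish, against 57.3, 50.7 and 50.3 TPM in soft gel. The groups did not overlap in TPM but did so in CPM, at 58.5, 63.6 and 74.0 against 77.0, 70.6 and 72.5. Its log2 fold change from counts was 0.17 (SE 0.121). CRYAB stood at 1.35 to 1.99 times the HSPB8 level on the rigid dish and at 22.6 to 36.5 times that level in soft gel.

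HSPB11 (ENSG00000081870, chr1:53916574-53945929, minus strand), the intraflagellar transport subunit, stood at 66.4, 49.5 and 40.2 TPM on the rigid dish, against 56.6, 54.0 and 58.2 TPM in soft gel. The soft gel libraries lay inside the range of the rigid dish libraries, and the log2 fold change was -0.01 (SE 0.153). HSPB6 (ENSG00000004776, chr19:35754569-35758079, minus strand), a small heat shock protein of muscle, was low, at 1.54, 1.27 and 1.74 TPM against 1.36, 1.31 and 1.02 TPM. The HSPB6 groups overlapped, and its log2 fold change was -0.36 (SE 0.366), an error as large as the difference. In rigid dish 1, 22.73 counts of HSPB6 gave 1.54 TPM, while 28 counts in rigid dish 2 gave 1.27 TPM, so the deposited TPM of this gene do not follow its counts in a fixed ratio. HSPB6 shares 657 exon bases with the antisense gene AC002398.2, which held 1.27 counts in rigid dish 1 and 0 elsewhere. On the rigid dish the ranges of CRYAB and HSPB11 overlapped, as did those of HSPB8 and HSPB11. In soft gel the ranges of HSPB8 and HSPB11 overlapped again, so these neighbours did not differ beyond their spread.

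The remaining members, HSPB2, HSPB3 (ENSG00000169271, chr5:54455601-54456384, plus strand) and HSPB7 (ENSG00000173641, chr1:16014028-16019594, minus strand), had too few counts to pass the filter, and were not called when the filter was dropped. Their counts in rigid dish libraries 1 to 3 and then soft gel libraries 1 to 3 follow, and a count of 0 allows up to 3 counts, or 0.112 to 0.141 CPM. HSPB2 had 2, 0 and 8 counts against 8, 3 and 8.55. HSPB3 had 2, 0 and 4 counts against 5, 10 and 4. HSPB7 had 1, 0 and 0 counts against 5, 1 and 3. HSPB2 overlapped between the groups. The nearest HSPB3 libraries, rigid dish 3 and soft gel 3, held 4 counts each (0.179 and 0.188 CPM). The nearest HSPB7 libraries, rigid dish 1 and soft gel 2, held 1 count each, the groups overlapped in TPM, and the difference in CPM (0.0374 against 0.0406) is under what a count of 0 allows. From summed counts, the soft gel level was, as a multiple of the rigid dish level, 2.06 for HSPB2 (95% interval 0.919 to 4.92), 3.26 for HSPB3 (1.25 to 9.96) and 9.25 for HSPB7 (1.28 to 406). These exact binomial intervals cover counting error only and leave out the spread between libraries. The related genes CRYAA, CRYAA2, HSPB9 and ODF1 were not tested either, with at most 13 counts in a library, and ODF1 had 0 counts in all 6.

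By edgeR's quasi-likelihood test across all genes, 5 of the 8 members were tested and 2 of these 5 were called at an adjusted p below 0.05, CRYAB higher and HSPB1 lower in soft gel. Over all 16098 tested genes, 28.6% were called, 15.4% higher and 13.2% lower. Groups did not overlap in CPM for 2 of the 5 tested members and for 44.6% of all tested genes. Since the members were chosen with this comparison in view, nothing is read from their count.

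CRYAB and HSPB2 lie head to head on chromosome 11. CRYAB (ENSG00000109846, hg38 chromosome 11, 111908565 to 111923722, minus strand) has 16 transcripts in GENCODE 29, and the 5′ end of CRYAB-201 lies 232 bases from the start of HSPB2 (ENSG00000170276, 111912242 to 111914093, plus strand). Of the 16 transcripts, 8 begin further upstream and run over the HSPB2 start, and the exons of both genes share 626 bases on opposite strands. No strand setting is stated, so reads in the shared bases cannot be told apart. HSPB2 nonetheless held at most 8.55 counts in a library where CRYAB held 9749, so nearly all reads of the pair were assigned to CRYAB.

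Other genes within 50 kb of CRYAB were read from the same fit. C11orf52, on the plus strand at 111918032 to 111926872, had 0 counts in all 3 rigid dish libraries and 22, 27 and 11 counts in soft gel. Against a floor of 3 counts over the rigid dish group, C11orf52 was at least 20.6-fold higher in soft gel. It passed the filter only through its soft gel libraries, so no p-value is given for it. Its start lies within the span of the longest CRYAB transcript, on the other strand, and the exons of the genes share no bases. With no strand setting stated, reads within C11orf52 cannot be assigned to either strand. DIXDC1, a gene of Wnt signalling next to it, rose from 22.3 ± 2.38 to 32.0 ± 5.76 CPM (log2 fold change 0.52, SE 0.161, edgeR adjusted p = 0.038). The DIXDC1 call was lost without soft gel 1, soft gel 2, rigid dish 2 or rigid dish 3 (edgeR adjusted p = 0.12 to 0.158) and on the TPM scale (limma adjusted p = 0.164 and 0.173). On the other side, ALG9 (log2 fold change -0.09), FDXACB1 (-0.33) and C11orf1 (0.49) did not pass (edgeR adjusted p = 0.626, 0.496 and 0.165). AP001781.2, annotated over parts of ALG9 and FDXACB1 on their strand, had 0 counts on the rigid dish and fractional counts of 5.75, 13.8 and 13.9 in soft gel, and reads of these overlapping genes cannot be told apart. HSPB2-C11orf52 and 4 pseudogenes had 0 counts in every library.

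**Figure D3:**
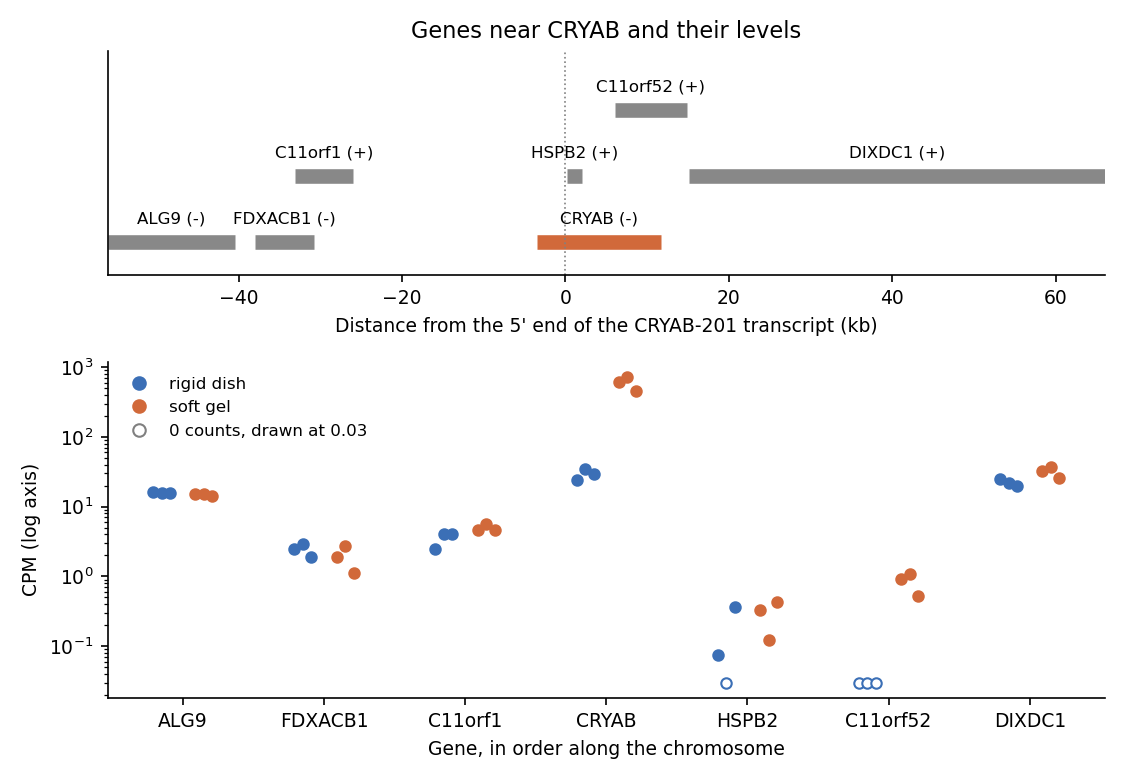
Top, genes near CRYAB by distance (kb) from the 5′ end of CRYAB-201, with the strand in brackets. Bottom, CPM (log axis) of these genes in each library, rigid dish in blue and soft gel in orange, open circles for 0 counts. CRYAB, C11orf52, DIXDC1 and C11orf1 lie higher in soft gel without overlap and ALG9 lower, while HSPB2 and FDXACB1 overlap. Groups did not overlap for 44.6% of all tested genes.

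The genes most like CRYAB were sought among 9710 tested protein-coding genes with a mean of at least 10 CPM over the 6 libraries. The measure was the root mean square distance of log2 CPM centred on each gene's mean. AKR1C1, an aldo-keto reductase, was nearest (0.143), followed by SEMA5A (0.311), ID4 (0.571), DRAXIN (0.651) and SLITRK6 (0.677). AKR1C1 stood at 22.0, 25.2 and 23.9 CPM on the rigid dish, against at 575, 580.5 and 432 CPM in soft gel, so that its soft gel 3 library was lowest as for CRYAB. For HSPB1 the nearest genes were TUBB6 (0.0436), TUBA1C (0.0474), CDC25C (0.0705), TUBB (0.0754) and IGFBP4 (0.0777). TUBB6, TUBA1C and TUBB encode tubulins, and CDC25C is a phosphatase of mitotic entry. AKR1C1 and the tubulins have near-identical paralogs, so their counts are uncertain. The lists depended on the measure. By Pearson correlation the 5 genes were TCF7L2, TBX2, RIT1, AKR1C1 and LMO4 for CRYAB and ANAPC15, CPNE1, PRR5L, TUBB6 and SRR for HSPB1, each sharing 1 gene with the list by distance. These likenesses rest mostly on the difference between the groups and carry no test.

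**Figure D4:**
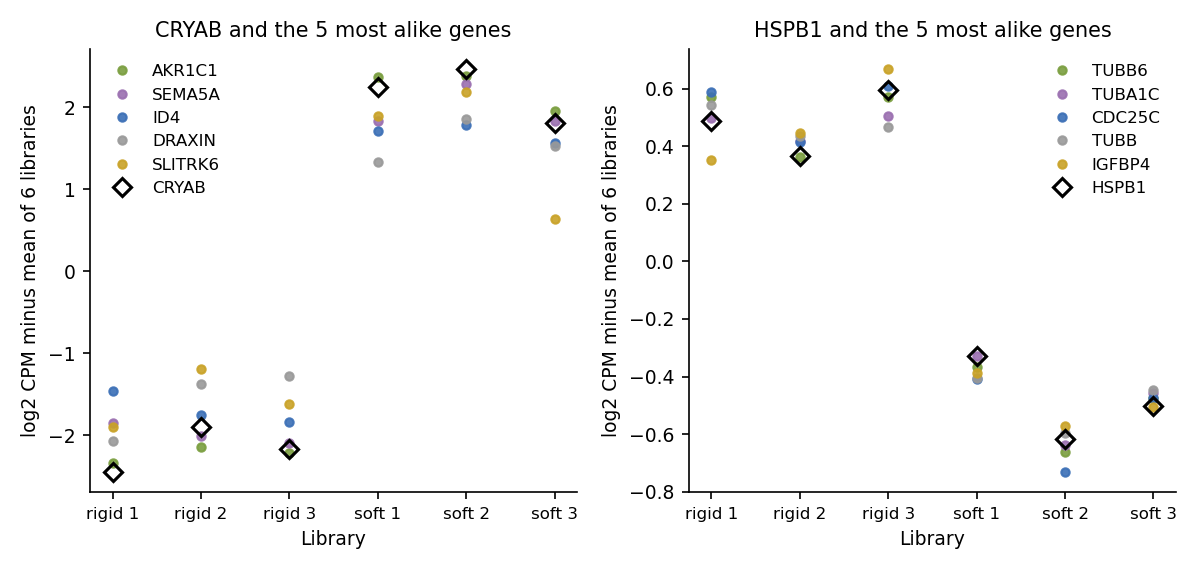
log2 CPM in each library minus the mean over the 6 libraries, for CRYAB (left) and HSPB1 (right), drawn as black diamonds, each with the 5 genes nearest by distance in coloured points. The CRYAB group lies low on the rigid dish and high in soft gel, and the HSPB1 group the reverse, over a much smaller range.

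Heat shock factors did not move together. HSF1, the main activator of heat shock genes, was at 92.0, 111 and 130 CPM on the rigid dish, against at 69.8, 64.1 and 84.0 CPM in soft gel. It fell by 0.61 on the log2 scale (SE 0.155, edgeR adjusted p = 0.0197), and the call was lost when soft gel 1, soft gel 2 or rigid dish 2 was left out (adjusted p = 0.0695 to 0.0891). HSF2 did not pass (log2 fold change 0.04, SE 0.131, edgeR adjusted p = 0.856). HSF4, the factor known from lens, rose from a low level of 1.96 ± 0.0322 to 3.38 ± 0.379 CPM (edgeR adjusted p = 0.0323). The HSF4 call was lost without each library in turn except rigid dish 1 (adjusted p = 0.0674 to 0.126), with DESeq2 (0.0785), with no filter (0.0841) and on the TPM scale (limma adjusted p = 0.183 and 0.192). HSF5, HSFX1 and HSFY1 were not tested.

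Of 24 tested HSF1-inducible chaperones and co-chaperones, 3 rose, 8 fell and 13 did not pass, and the list's median log2 fold change was -0.01 beside 0.05 for all tested genes. The share called was 45.8%, beside 28.6% of all tested genes. HSPH1, a nucleotide exchange factor of HSP70, rose from 99.6 ± 33.7 to 197 ± 47.7 CPM (log2 fold change 0.99, edgeR adjusted p = 0.0178), as did DNAJB4 (0.84, adjusted p = 0.0421). HSPA6, the strictly inducible HSP70, is the other of the 3 counted as rising, yet only from 0.220 ± 0.128 to 1.18 ± 0.209 CPM. HSPA6 passed the filter only through its soft gel libraries, so no p-value is given for it. DNAJB1, the main HSP40 of the heat shock response, fell from 438 ± 66.2 to 278 ± 28.9 CPM (-0.66, edgeR adjusted p = 0.00979), and SERPINH1 (-0.72), PTGES3 (-0.57) and FKBP4 (-0.54) also fell. The constitutive HSP70 gene HSPA8 (log2 fold change 0.02) and the inducible HSPA1B (0.13) did not pass, where HSPA1B and HSPA1A are near-identical copies and nearly all reads were assigned to HSPA1B. The calls of HSPH1, DNAJB4 and SERPINH1 were lost without soft gel 1, soft gel 2, rigid dish 2 or rigid dish 3, as well as in the TPM fits, that of DNAJB1 without soft gel 2 and that of FKBP4 without soft gel 1. Leaving out soft gel 2 gave 4 calls in the list, leaving out soft gel 1 gave 5, and leaving out rigid dish 2 gave 6.

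BAG co-chaperones and autophagy partners of HSPB8 were mostly not called, with 1 of 14 higher, 1 lower and a median log2 fold change of -0.13. BAG3 itself was at 142, 153 and 170 CPM on the rigid dish, against 132, 117 and 137 CPM in soft gel. The BAG3 groups did not overlap, but it did not pass (log2 fold change -0.27, SE 0.116, edgeR adjusted p = 0.107), except without rigid dish 1 (-0.33, adjusted p = 0.0441). BAG2, an inhibitor of the ligase STUB1, rose (0.50, adjusted p = 0.0316), and VCP, an ATPase that extracts ubiquitinated proteins, fell (-0.34, adjusted p = 0.0369). Both calls were lost without rigid dish 2, rigid dish 3, soft gel 1 or soft gel 2, where 0 of the list were called each time by edgeR, with 2 or 3 at an unadjusted p below 0.05. DESeq2 on all libraries called 3. By edgeR on all libraries the share called was 14.3%, beside 28.6% of all tested genes.

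Among 19 kinases and phosphatases that act on HSPB1 and CRYAB or upstream of them, 1 rose, 3 fell and 15 did not pass, with a median log2 fold change of -0.17. MAPKAPK2, the kinase that phosphorylates HSPB1 downstream of p38, did not pass (log2 fold change -0.30, SE 0.125, edgeR adjusted p = 0.099), but did so without rigid dish 1 (adjusted p = 0.0478) or soft gel 3 (adjusted p = 0.0206). The p38 gene MAPK11 (-0.65), PRKCD (-0.62) and AKT1 (-0.42) fell (edgeR adjusted p = 0.0373, 0.0134 and 0.031). PRKG1, named outside the rule as the sole rise, went from 1.04 ± 0.340 to 4.42 ± 1.45 CPM (adjusted p = 0.00392). The calls of MAPK11, PRKCD and AKT1 were all lost without rigid dish 2 or soft gel 2, and the number called was then 1. It was 2 without rigid dish 3 or soft gel 1. On all libraries the share called was 21.1%, beside 28.6% of all tested genes.

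**Figure D5:**
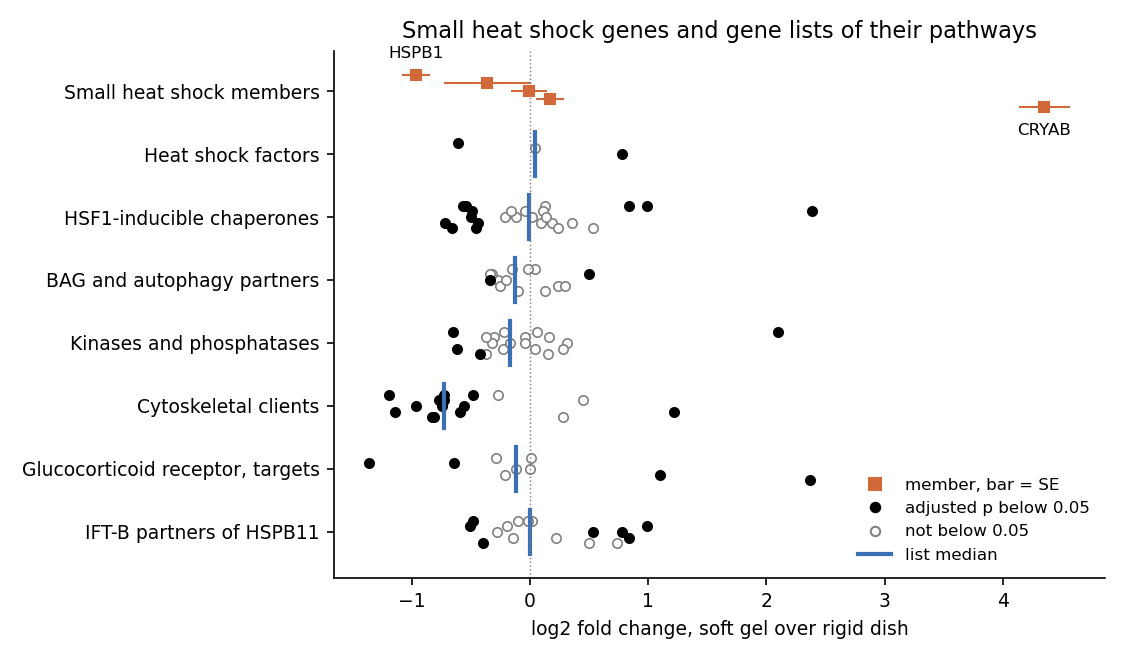
log2 fold change (soft gel over rigid dish) of the 5 tested members, with SE bars, and of each tested gene of 7 pathway lists, filled where the edgeR adjusted p was below 0.05, with the list median as a blue line. CRYAB lies at 4.35 and HSPB1 at -0.96, and of the 7 lists the cytoskeletal clients have the lowest median (-0.73).

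Cytoskeletal proteins that small heat shock proteins bind or protect were mostly lower in soft gel. Of 16 tested genes, 12 fell, 1 rose and 3 did not pass, with a median log2 fold change of -0.73. Calls made up 81.2% of these genes, beside 28.6% of all tested genes, where 13.2% were called lower. Their number, 13 by edgeR with every library kept, ranged from 9 to 14 in the fits that dropped 1 library. The tubulin genes TUBA1B (-1.14) and TUBB (-0.96) and the actin crosslinker gene FLNA (-0.83) were among those that fell (edgeR adjusted p = 0.000714, 0.000741 and 0.00474). SYNM, the intermediate filament protein synemin, was the exception, rising from 44.3 ± 4.75 to 103 ± 19.6 CPM (log2 fold change 1.22, adjusted p = 0.00141). VIM, vimentin, the most abundant intermediate filament gene of the list, fell from 3657 ± 392 to 2618 ± 153 CPM (-0.48, edgeR adjusted p = 0.0172), a call lost when soft gel 1, soft gel 2 or rigid dish 2 was left out. GFAP did not pass (adjusted p = 0.574), and desmin (DES) was too low to test.

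The glucocorticoid receptor, whose ligands are known to raise CRYAB, and its targets were analysed for 11 of 12 listed genes and gave 2 rises and 2 falls among the 9 tested (median log2 fold change -0.12). The share called was 44.4%, beside 28.6% of all tested genes. The receptor gene NR3C1, named outside the rule, stood at a log2 fold change of 0.01 and did not pass (edgeR adjusted p = 0.951). DUSP1 (2.37, adjusted p = 0.000336) and SGK1 (1.10, adjusted p = 0.00154) rose, while MT2A (-1.36, adjusted p = 0.00131) and FKBP5 (-0.64, adjusted p = 0.0375) fell. DUSP1 and SGK1 are also immediate responders to serum and stress, and FKBP5 encodes a co-chaperone of the receptor. FKBP5 lost its call without rigid dish 1, rigid dish 2, soft gel 1 or soft gel 2 (adjusted p = 0.0636 to 0.139), with upper quartile factors (0.0502) and in the TPM fits (limma adjusted p = 0.249 and 0.239).

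Genes of the ciliary IFT-B complex, in which HSPB11 pairs with IFT27, went both ways. Of 16 tested partners 4 rose, 3 fell and 9 did not pass, with a median log2 fold change of 0.00. IFT27 itself rose from 25.1 ± 2.36 to 36.2 ± 5.71 CPM (0.53, edgeR adjusted p = 0.0287), and IFT81 (0.84) and IFT80 (0.78) rose too. IFT22 (-0.51), IFT52 (-0.48) and IFT46 (-0.40) fell (adjusted p = 0.0198, 0.0305 and 0.0498). The number called dropped to 1 without rigid dish 2, rigid dish 3 or soft gel 1, and to 0 by edgeR without soft gel 2, with 7 at an unadjusted p below 0.05. DESeq2 on all libraries called 7. By edgeR on all libraries the share called was 43.8%, beside 28.6% of all tested genes.

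Most markers of other cell types that express small heat shock genes were below 1 CPM. Of 14 striated muscle markers, 11 were below 1 CPM on average and MYOD1, MYOG, MYF5 and CKM were at 0 counts in all libraries. The summed muscle list ran from 48.1 to 55.3 CPM on the rigid dish and from 42.2 to 47.5 CPM in soft gel, mostly from PAX7 (36.4 ± 4.06 and 30.01 ± 2.17 CPM), with TNNT1 (9.15 and 5.54 CPM) and TTN (5.67 and 7.78 CPM) next. The 6 lens markers summed to 2.24 to 3.44 CPM on the rigid dish and 4.73 to 5.63 CPM in soft gel, mostly from BFSP1 (2.85 and 4.83 CPM), which rose (edgeR adjusted p = 0.0396), and the lens crystallin CRYGC had 0 counts. TNNT1, a troponin, fell among the muscle markers, a call lost without rigid dish 2, rigid dish 3, soft gel 1 or soft gel 2. Leukocyte markers summed to 0.258 to 1.57 and 1.74 to 2.39 CPM, and endothelial markers to 1.64 to 3.07 and 3.01 to 4.14 CPM, mostly from KDR (1.85 and 3.05 CPM, not called). ITGAM, the tested leukocyte marker, went from 0.173 ± 0.112 to 1.02 ± 0.208 CPM (log2 fold change 2.49). It passed the filter only through its soft gel libraries, so no p-value is given for it. The part of these markers in the CRYAB difference was not tested. The lens, leukocyte and endothelial sums stayed at or below 5.63 CPM in each library, while the muscle sum reached 55.3 CPM.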

How the data were processed

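Total RNA from DBTRG cells was extracted with TRIzol and prepared with a TruSeq RNA kit, per the labels' protocols. HISAT2, HTSeq and hg38 are named in the submitters' processing notes, without versions. The deposited table, made by the authors, holds estimated counts (decimals in 11.3% to 13.0% of genes), TPM, and the authors' deposited fold and log2 fold changes, p-values and adjusted p-values. Groups were taken from the sample titles. Estimated counts were rounded, genes kept with filterByExpr (minimum count 10), scaled by TMM and fitted by group with edgeR 4.0.16 in R 4.3.3, with Benjamini-Hochberg adjustment over 16098 genes and a threshold of 0.05. Alternatives were other size factors, no filter, DESeq2 1.42.0, limma 3.58.1 on log2(TPM + 0.1 or 1), a replicate block and leaving out each library. The fit was tested on simulated data. At 3 libraries per group and 20911340 to 25901465 counts per library, the floor of 3 counts is 0.112 to 0.141 CPM. Members and lists were chosen with earlier results of these data known. Genes named were the members, genes within 50 kb of CRYAB, the 5 genes nearest to CRYAB and to HSPB1, HSF1, HSF2, HSF4, BAG3 and MAPKAPK2, and per list up to 4 called genes in each direction with the largest changes and a mean of 5 CPM or more. A result that this rule would name is not reported here. Other genes named (HSPA6, HSPA8, HSPA1B, PRKG1, NR3C1, VIM as a client, GFAP, the genes most like by Pearson correlation and cell type markers) were chosen after their values were seen. Promoter sequences are from RefSeq (GRCh38.p14).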

Additional observations from a re-analysis of the deposited data

How the results depend on the processing

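CRYAB and HSPB1 kept their direction and call under all 13 alternatives, and the number of members called stayed at 2. Over the fits that leave out 1 library, the log2 fold change was 4.19 to 4.49 for CRYAB and -1.05 to -0.90 for HSPB1. The family was selected on values of this comparison, so these refits of the same libraries add no support to the calls. By Pearson correlation in place of distance, 1 of the 5 genes most like CRYAB was shared, and 1 of 5 for HSPB1. HSPB11, never called, ran from -0.18 to 0.14. Genes called over the whole table numbered 4603, and 2287 or 2313 with limma on log2(TPM + 0.1) or log2(TPM + 1), and 1803 to 6164 leaving out 1 library. The number rose to 6164 without rigid dish 1 and to 5337 without soft gel 3, and fell without each other library. The cause was not tested. The split of calls was 2480 higher and 2123 lower, and 2716 and 1885 with upper quartile factors. Limma on the same scales called 5 or 4 HSF1-inducible chaperones (11 in edgeR), 0 and 0 BAG and autophagy partners (2; 3 and 2 at an unadjusted p below 0.05), 0 and 0 kinases and phosphatases (4; 5 and 6 unadjusted), and 1 and 1 IFT-B partners (7). Upper quartile factors left 1 BAG partner. Cytoskeletal clients called numbered 13 in edgeR with every library kept, and 9 to 14 when 1 library was dropped. Leaving out 1 library gave 4 to 13 chaperones, 0 to 5 BAG partners, 1 to 7 kinases, 0 to 7 IFT-B partners and 1 to 6 glioma markers (4 in edgeR on all libraries), and 3 to 4 glucocorticoid genes (4), of which limma and upper quartile factors called 3. Whether the replicate numbers pair the libraries could not be settled. Same-numbered deviations from the group means correlated at 0.217, 0.00912 and 0.307. Rigid dish 1 and rigid dish 3 each correlated best with the soft gel library of the same number. Rigid dish 2 correlated best with soft gel 3, at only 0.0424. With the replicate block 6442 genes were called, 5 BAG partners and 8 kinases, and CRYAB stood at 4.34 and HSPB1 at -0.97. MAPKAPK2 was called with the block (adjusted p = 0.0389). Depth limits HSPB2, HSPB3 and HSPB7, which were tested only with no filter, where the same number of members, 2 of 8, was called.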
